A study of Mus musculus with 6 samples.

Results

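The genes that encode the proteasome were followed in early B-lineage cells of mice labelled Fnip1-null and wild type. Members were all genes whose symbol in the array annotation is Psm, a letter from a to g and a number, each represented by its probe of highest mean signal: 47 genes out of the 19057 with a named probe. These 47 have 82 of the 45281 probes in the table. Sorted B220+CD43+ cells of mouse bone marrow, named pre-B cells in the labels, gave the total RNA. Each sample was read on its own Illumina BeadChip array in a single colour. There were 3 arrays for each genotype. The Fnip1-null group carries the genotype Fnip 1 -/- and the other group the genotype Wt, with no treatment named for either. Strain, age, the change made to Fnip1 and whether animals were pooled are not stated in the sources used here, so each p-value reflects only how much these samples vary, which may be technical. The intensity headers of the arrays labelled Fnip1-null also carry the words LPAB - Yugioh, of unstated meaning, which those labelled wild type lack. Within a group the letters A, B and C name the arrays and have no order.

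The proteasome is the protease that degrades proteins tagged with ubiquitin. Its core is a barrel of alpha and beta rings, and PSMB5, PSMB6 and PSMB7 carry the cutting sites inside it. In lymphocytes and in cells exposed to interferon these 3 subunits are largely replaced by PSMB8, PSMB9 and PSMB10, which makes the immunoproteasome, a form that favours peptides suited to MHC class I. A regulatory particle of ATPases, other base subunits and a lid recognises and unfolds substrates, the PA28 proteins PSME1 and PSME2 form another cap, and dedicated chaperones assemble the whole. The transcription factor NFE2L1 (also called NRF1) raises the subunit genes together when the proteasome is inhibited. Fnip1 encodes a partner of folliculin, which acts in nutrient sensing at the lysosome.

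Between 17442 and 18294 probes were detected per array, and the correlation between arrays was at least 0.989 within groups and at most 0.976 between them. Fnip1 itself was higher on the arrays labelled Fnip1-null (10.01 ± 0.04 against 9.06 ± 0.14, log2, SD, n = 3 each, limma adjusted p = 0.000665). This goes against the direction that loss of the transcript would give. Where the probes lie relative to the change in the gene was not known here, so directions below are those of the labelled arrays. Each group holds 1 array of male RNA, array A, and 2 of female RNA by Xist and Eif2s3y. Of 8 B-lineage marker genes with a named probe, 7 were detected on all 6 arrays, among them Vpreb1, Igll1 and Rag1. The probe of Pax5 was detected on none, and Cd79a had no named probe here. Cd79b, Ebf1 and Rag1 fell on the arrays labelled Fnip1-null, by 0.49, 0.52 and 2.06 on the log2 scale (limma adjusted p = 0.0304, 0.0147 and 7.38e-06). The other tested markers, Igll1, Ptprc, Vpreb1 and Spn, had positive differences of 0.36, 0.31, 0.12 and 0.05 without passing, and the list median was 0.05. The part of these markers in the values below was not tested.

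No tested proteasome gene passed the test on its brightest probe. Of the 47 genes, 40 passed the detection filter (3 or more of the 6 arrays with a detection p below 0.05), and none of these 40 was called higher or lower (limma, Benjamini-Hochberg adjusted p under 0.05 over all 18172 tested probes). Across the 9676 tested genes, 7.89% were called higher and 5.25% lower, 13.1% in all. By unadjusted limma p under 0.05 the count was 2 of 40, against 27.3% of all tested genes. The lowest adjusted p of a member was 0.0947, for Psmd11. Log2 differences (arrays labelled Fnip1-null minus wild type) ran from -0.47 to 0.25, with 19 above 0 and 21 below. Their median was -0.03 and the median size regardless of sign was 0.09, whereas over all tested genes these were 0.01 and 0.17.

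How tightly the data bound each gene follows from the 95% intervals of the fit. For all 40 tested genes the interval lay within a 2-fold change in either direction, as it did for 93.3% of all tested genes, and for 37 of the 40 it lay within 1.5-fold, against 69.5% of all tested genes. The 3 with wider intervals were Psmd2, Psmd11 and Psme4. The median standard error of the 40 was 0.11 on the log2 scale and that of all tested genes 0.12. The smallest difference that the fit called for any gene was 0.35 on the log2 scale, and 241 of the 1271 called genes differed by less than the 0.47 of Psmd2, so an uncalled member is not shown to be unchanged. Only Psmd2 and Psmd11 among the 40 differed by more than that smallest called size.

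**Figure D1:**
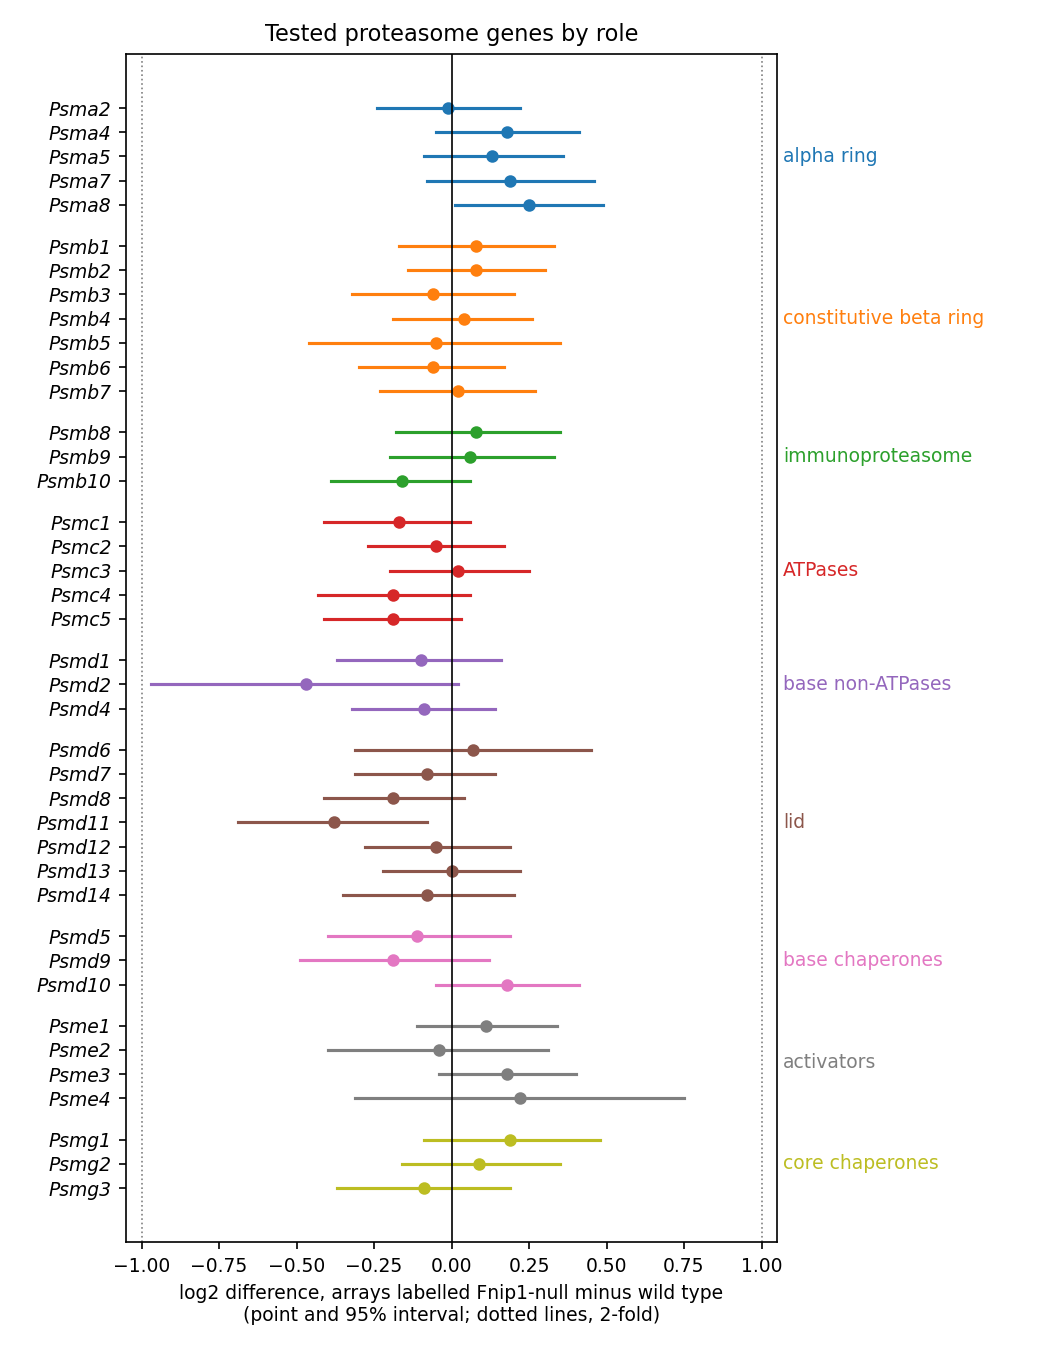
Log2 difference in signal (horizontal axis) for each of the 40 tested proteasome genes, grouped by role. Points are estimates and lines their 95% intervals from limma. All 40 intervals lie within the dotted 2-fold lines, and Psmd2 and Psmd11 stand lowest, at -0.47 and -0.38.

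**Figure D2:**
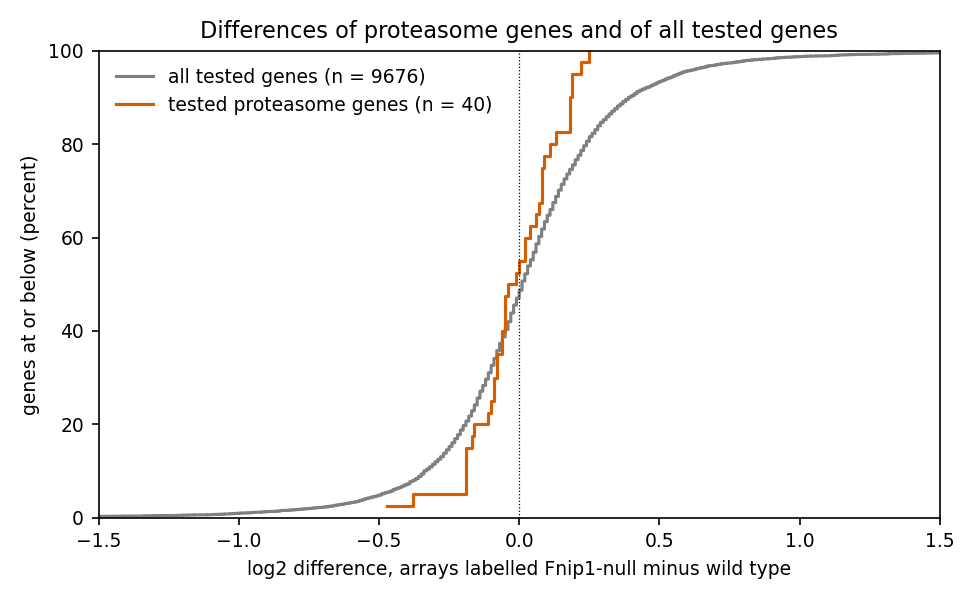
Cumulative share of genes (percent, vertical axis) by log2 difference (horizontal axis), for the 40 tested proteasome genes and all 9676 tested genes. The proteasome curve spans -0.47 to 0.25, and a part of the curve of all genes lies outside the axis range.

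The immunoproteasome subunits were detected on every array and none passed the test. Psmb8 (LMP7, the counterpart of Psmb5) read 12.78, 12.59 and 12.51 on arrays A to C labelled Fnip1-null and 12.61, 12.62 and 12.41 on those labelled wild type (normalized signal, log2). The groups overlapped, and the difference was 0.08 (SE 0.12, 95% interval -0.18 to 0.35, limma adjusted p = 0.697). Psmb9 (LMP2, the counterpart of Psmb6) read 11.28, 11.22 and 11.23 against 11.21, 11.35 and 10.99. The arrays labelled wild type held both the highest and the lowest value, and the difference was 0.06 (95% interval -0.20 to 0.33). Psmb10 (MECL-1, the counterpart of Psmb7) read 11.65, 11.73 and 11.60 against 11.83, 11.83 and 11.81. All 3 arrays labelled Fnip1-null lay below all 3 labelled wild type, but the difference of -0.16 (SE 0.10, 95% interval -0.39 to 0.06) gave an adjusted p = 0.31, and the second probe of Psmb10, at -0.09, overlapped between groups. Psmb11, the subunit specific to the thymus, was on no array well above background.

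The constitutive catalytic subunits were as close between the groups. Psmb5, the chymotrypsin-like subunit, varied most of the 3 within the groups, at 8.69, 8.93 and 9.28 against 8.84, 9.32 and 8.91. Its difference of -0.05 (95% interval -0.46 to 0.35) was well under its within-group SD of 0.28. Psmb6, the caspase-like subunit, read 11.61, 11.83 and 11.71 against 11.80, 11.72 and 11.81, a difference of -0.06 (95% interval -0.30 to 0.17). Psmb7, the trypsin-like subunit, read 11.28, 11.57 and 11.40 against 11.42, 11.37 and 11.40, and its 4 probes differed by between -0.03 and 0.02. In each of these 3 genes the groups overlapped.

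**Figure D3:**
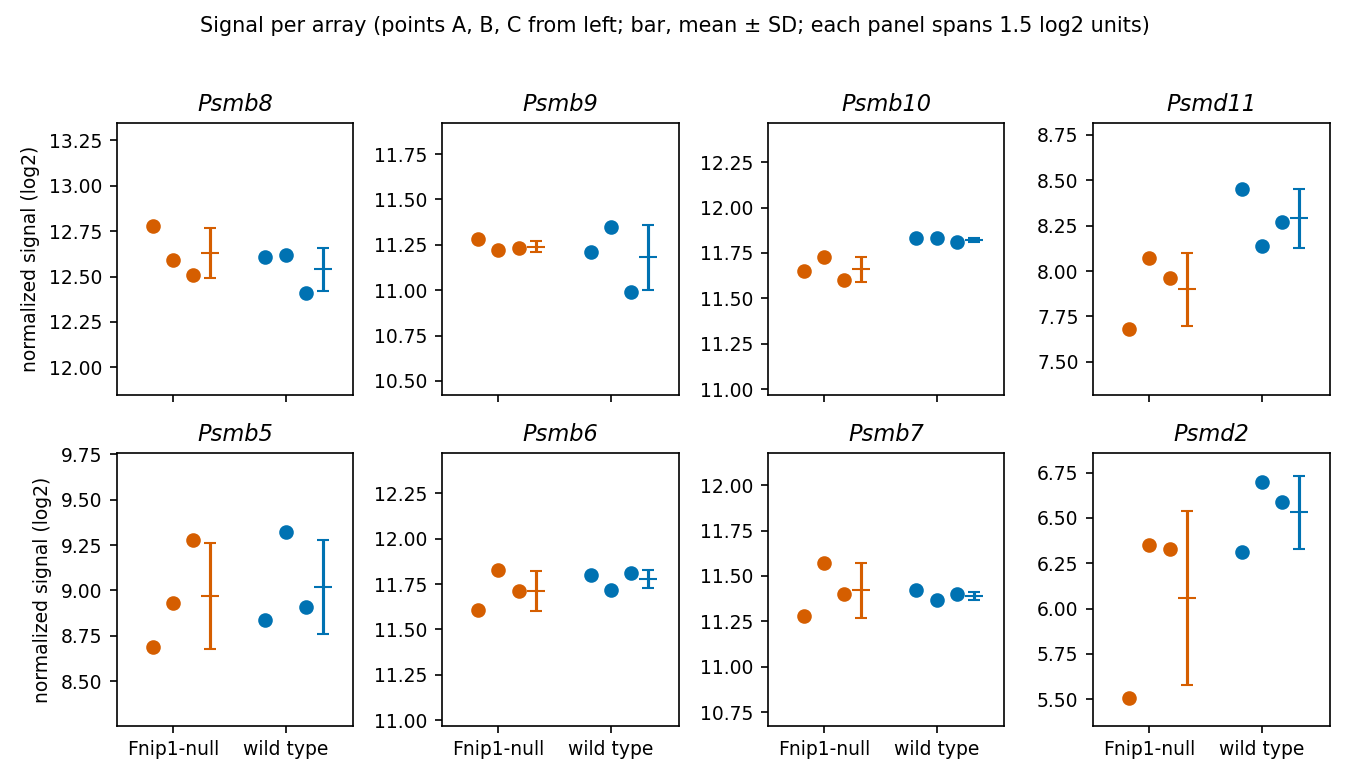
Normalized signal (log2, vertical axis) on each array for the 3 immunoproteasome genes, their 3 constitutive counterparts below them, and Psmd11 and Psmd2. Points are arrays A, B and C from left, bars are the mean ± SD of 3 arrays, and every panel spans the same range. The groups overlap in all panels except Psmb10 and Psmd11.

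The balance between the immunoproteasome and the constitutive form was then described per array as the mean log2 signal of Psmb8, Psmb9 and Psmb10 minus that of Psmb5, Psmb6 and Psmb7, centred on its mean over the 6 arrays. It stood at 0.25, -0.06 and -0.14 on the arrays labelled Fnip1-null and at 0.07, 0.00 and -0.10 on those labelled wild type, a difference of 0.03 with SDs of 0.21 and 0.09 (n = 3 each). The values overlapped, and array A labelled Fnip1-null was the highest. Taken by counterpart pairs, Psmb8 minus Psmb5 differed between the groups by 0.14 and Psmb9 minus Psmb6 by 0.12, both with overlap. Psmb10 minus Psmb7 was lower on the arrays labelled Fnip1-null by -0.19, with values of 0.03, -0.18 and -0.14 against 0.08, 0.13 and 0.07 that did not overlap. No test was made of these balances, since they are scores over chosen genes.

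**Figure D4:**
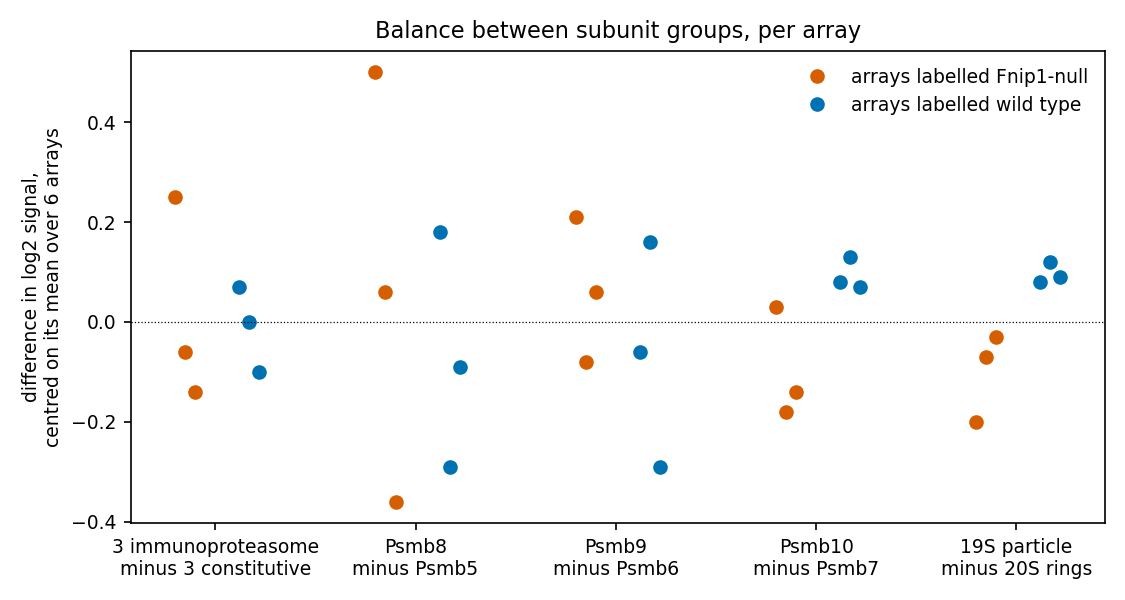
Difference in log2 signal between subunit groups or counterpart pairs on each array, centred on its mean over the 6 arrays (vertical axis). Points are single arrays. The first 3 comparisons overlap between the groups, whereas Psmb10 minus Psmb7 and the regulatory particle (19S) minus the rings of the core (20S) do not.

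In the alpha ring, which gates entry to the core, 5 of 8 genes were tested and none passed. Psma4, Psma5, Psma7 and Psma8 had differences of 0.18, 0.13, 0.19 and 0.25, and Psma2 one of -0.01. Psma8, which replaces its relative Psma7 in spermatogenic cells, was near background, at 5.01, 5.01 and 4.82 against 4.77, 4.69 and 4.63. Its probe passed detection on all 3 arrays labelled Fnip1-null but on only 1 of the others, and its groups did not overlap (limma adjusted p = 0.159). Psma1, Psma3 and Psma6, also ring subunits that every proteasome needs, had 1 probe each, which was not detected on any array, so their transcripts were not measured here. The other beta ring genes, Psmb1 to Psmb4, differed by between -0.06 and 0.08, with adjusted p-values of 0.628 or more.

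The regulatory particle held the genes with the largest differences, all of them below the threshold. Of the 5 tested ATPase genes (Psmc1 to Psmc5), which unfold substrates, 4 had a negative difference. In Psmc1, Psmc4 and Psmc5 all 3 arrays labelled Fnip1-null lay below all 3 labelled wild type. Over all 9676 tested genes 4628 had a negative difference, and 14.9% were lower without overlap. With only 5 genes that share the same arrays, these counts are a description and were not tested. Psmc5 read 10.56, 10.65 and 10.70 against 10.83, 10.82 and 10.83, a difference of -0.19 (SE 0.10, adjusted p = 0.249). Psmc6 was on no array well above background. Psmd11, the lid subunit RPN6, read 7.68, 8.07 and 7.96 against 8.45, 8.14 and 8.27. The groups did not overlap, and the difference was -0.38 (SE 0.14, 95% interval -0.69 to -0.08, adjusted p = 0.0947). Its second detected probe, which is dimmer, read 5.03, 5.17 and 4.99 against 5.57, 5.34 and 5.48, a difference of -0.40 (SE 0.11, limma adjusted p = 0.042). That was the only called probe among the 66 tested probes of members, where 14.2% of all tested probes were called. Averaging the tested probes of each gene gave Psmd11 -0.39 and an adjusted p = 0.0538, and without array A labelled Fnip1-null the brightest probe stood at -0.27.

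Psmd2, the base subunit RPN1 that docks ubiquitin shuttle proteins, read 5.51, 6.35 and 6.33 against 6.31, 6.70 and 6.59. Array A labelled Fnip1-null lay far below the rest, array A labelled wild type was the lowest of its group, and the groups overlapped by a narrow margin. The difference was -0.47 (SE 0.22, 95% interval -0.97 to 0.02, adjusted p = 0.197). With the sex of the RNA as a block it was the only member called, at the same -0.47 (SE 0.13, limma adjusted p = 0.0407). Within female RNA the difference was -0.30 and within male RNA -0.81, with 1 male array in each group. Without array A labelled Fnip1-null it was -0.19 (adjusted p = 0.433), and whether the sexes differ was not tested. The second probe of Psmd2 did not overlap between groups and stood at -0.37 (adjusted p = 0.106). Among the other base and lid genes, Psmd8 had the next largest difference, -0.19, without overlap (adjusted p = 0.269), and Psmd1, Psmd4, Psmd7, Psmd12 and Psmd14 lay between -0.10 and -0.05. Psmd6 was at 0.07, Psmd13 had the same mean in both groups (12.08), and Psmd3 was on no array well above background.

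In all, the groups did not overlap for 10 of the 40 tested genes. Psma4, Psma8, Psmd10 and Psme3 were higher on all arrays labelled Fnip1-null, and Psmb10, Psmc1, Psmc4, Psmc5, Psmd8 and Psmd11 lower. Over all tested genes 18.1% were higher and 14.9% lower in this way, 33% in all, so the members' counts of 4 and 6 lie near or below the background. With RNA from a sorted population, fewer cells of a type and less RNA per cell cannot be told apart.

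Among the other caps and the assembly factors no tested gene passed. Psme1, the PA28 alpha subunit, read 12.24, 12.28 and 12.18 against 12.18, 12.11 and 12.06, a difference of 0.11 (95% interval -0.11 to 0.34). Its partner Psme2 read 8.46, 8.38 and 8.04 against 8.54, 8.41 and 8.07, a difference of -0.04 (95% interval -0.40 to 0.31). Psme2 was lowest on array C in both groups. Psme3, the nuclear PA28 gamma, stood at 0.18 with an SD within the groups of only 0.04, and its adjusted p = 0.255. Psme4 (PA200) varied more within the groups than any other member, from 11.56 to 12.21 and from 11.26 to 12.17, lowest on array A in both, and its second probe had the opposite sign (-0.31 against 0.22). The core chaperone genes Psmg1, Psmg2 and Psmg3 stood at 0.19, 0.09 and -0.09, and the base chaperone genes Psmd5, Psmd9 and Psmd10 at -0.11, -0.19 and 0.18. Psmg4 was not well above background, and Psmf1, the inhibitor PI31, had no probe named for it here.

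Agreement between probes of a gene was also described. Such probes are read from the same RNA on the same arrays, so it does not measure variation between samples. Of 20 members with more than 1 tested probe, Psme4 had the widest gap between its probes' log2 differences, 0.52, followed by Psmg2 at 0.25 and Psmd10 at 0.21. For Psmd11 the gap was 0.01. Of the 47 members 8 lie on chromosome 11, which also carries Fnip1 (GRCm38.p6, chr11:54438107-54518241). Psmd11 starts 26 megabases from Fnip1, and Psmb6, the nearest, 16.1 megabases from it. The 7 tested members there had differences from -0.38 to 0.22.

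The promoters of the members that stood lowest and of the immunoproteasome gene Psmb9 are shown, with any motif matches marked. Each line gives the 250 bases before the annotated start on the gene's own strand (RefSeq, GRCm38.p6). The windows are chr11:80428365-80428614 on the plus strand for Psmd11, chr16:20651402-20651651 on the plus strand for Psmd2 and chr17:34187331-34187580 on the minus strand for Psmb9. For Psmd2 the start used by the promoter table lies inside the annotated gene, which begins at base 20651122. Capitals mark matches, on either strand, to the antioxidant element core TGANNNNGC, through which NFE2L1 and NFE2L2 act, and to the CCAAT box.
Psmd11: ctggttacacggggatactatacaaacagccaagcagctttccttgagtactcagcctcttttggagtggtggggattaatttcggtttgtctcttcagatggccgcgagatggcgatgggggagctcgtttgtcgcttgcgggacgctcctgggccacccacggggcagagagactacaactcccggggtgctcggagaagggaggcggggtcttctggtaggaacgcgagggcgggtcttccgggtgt
Psmd2: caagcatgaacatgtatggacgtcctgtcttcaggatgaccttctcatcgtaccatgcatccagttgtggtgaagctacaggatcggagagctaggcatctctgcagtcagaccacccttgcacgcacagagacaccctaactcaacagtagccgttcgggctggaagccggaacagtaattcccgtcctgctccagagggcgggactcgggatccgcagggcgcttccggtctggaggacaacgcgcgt
Psmb9: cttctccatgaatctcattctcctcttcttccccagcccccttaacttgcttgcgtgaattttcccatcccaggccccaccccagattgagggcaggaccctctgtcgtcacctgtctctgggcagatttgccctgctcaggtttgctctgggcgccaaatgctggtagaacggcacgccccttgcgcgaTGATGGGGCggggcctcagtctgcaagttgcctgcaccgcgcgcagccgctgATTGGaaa
Psmb9 holds 1 match to each of these motifs, and the windows of Psmd11 and Psmd2 hold neither. Of the 39 members with a promoter in the table, 16 (41%) held the antioxidant core, as did 38.7% of all 27025 genes with a promoter. The CCAAT box was in 35.9% of members and 37.5% of all genes. The interferon response element core was in 3 of the 39 members (7.69%, Psmb3, Psmd4 and Psmd9) and in 3.46% of all genes. It was in 0 of the 3 immunoproteasome genes, and the windows of Psmb8 and Psmb10 held none of these 3 motifs, unlike that of Psmb9. A match is a description of letters and not a site.

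Other genes of the pathway were read from lists of regulators, class I antigen processing and interferon genes. Of 30 proteasome cofactors, shuttles, ubiquitin genes and regulators, 17 were tested on their brightest probe, 2 rose and none fell, where 7.89% of all tested genes rose and 5.25% fell. Dimmer probes of 2 of these genes were called lower: 1 of Ube3a, a ubiquitin ligase, at -0.83 (limma adjusted p = 0.00269), and 1 of the shuttle gene Ubqln1 at -0.36 (adjusted p = 0.0493). The Ube3a probe was near background, at 4.52, 4.89 and 4.67 against 5.63, 5.48 and 5.47. It passed detection on all 3 arrays labelled wild type but on only 1 labelled Fnip1-null. The brightest probes of these genes stood at 0.14 and -0.05 (adjusted p = 0.589 and 0.812). The probes of Ube3a thus differed in sign, whereas the tested probes of Ubqln1 had the same sign (-0.05, -0.24 and -0.36). Both genes were named after their values were seen. Nfe2l2, the factor of the antioxidant response (NRF2), read 8.05, 8.20 and 8.46 against 7.19, 7.0 and 7.18. All 3 arrays labelled Fnip1-null were higher, and it rose 2.16-fold (95% interval 1.77 to 2.65, limma adjusted p = 0.000707). Ubqln4, a shuttle that carries ubiquitin-tagged proteins to the proteasome, rose 1.54-fold (95% interval 1.22 to 1.94, adjusted p = 0.0237), and lost its call under 7 of 17 alternatives. Nfe2l1, the regulator of the subunit genes, read 9.04, 8.98 and 8.89 against 8.62, 8.87 and 8.82, a difference of 0.20 (adjusted p = 0.278). The segregase cofactor Nploc4 stood at 0.27 (adjusted p = 0.114), and Pomp, the chaperone of core assembly, at 0.01 (adjusted p = 0.977). The median of the 17 was 0.04.

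Among 10 tested genes of class I antigen processing 1 rose and none fell, a count near the 7.89% and 5.25% of all tested genes. Nlrc5, the transactivator of MHC class I genes, which also acts on Psmb9, Tap1 and B2m, read 9.72, 9.36 and 9.37 against 8.68, 8.74 and 8.71. It rose 1.71-fold (95% interval 1.41 to 2.07, limma adjusted p = 0.00379), and it kept its call under all 17 alternatives. The peptide transporter gene Tap1, which shares a promoter region with Psmb9 in the opposite direction, stood at 0.23 (adjusted p = 0.307), the peptide loader Tapbp at -0.33 (0.269) and the chaperone Calr at -0.28 (0.11). Of 14 tested interferon genes 1 rose and none fell, again near the 7.89% and 5.25% of all tested genes. Stat2, which carries the interferon signal to the nucleus, rose 1.59-fold (95% interval 1.23 to 2.06, adjusted p = 0.0265) and lost its call under 6 of 17 alternatives. Gbp2, Igtp and Irf1 stood at 0.69, 0.51 and 0.19 without passing (adjusted p = 0.0646, 0.0889 and 0.276), and the interferon list median was 0.03. A second tested probe of Gbp2 stood at 0.28, with overlap. Of the 14 interferon genes 8 had a positive difference and 6 a negative one, down to -0.41. The upper 95% bounds of Psmb8, Psmb9 and Psmb10 were 1.27-fold, 1.25-fold and 1.04-fold. Whether the differences of these genes and of Nlrc5 differ from one another was not tested.

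Markers of other cells in the gate were measured beside these genes. The summed normalized signal (linear) of 8 B-lineage markers ran from 22500 to 26100 on the arrays labelled Fnip1-null and from 22300 to 27300 on those labelled wild type. The sum of 6 T cell markers was 660 to 1250 against 500 to 629, with Cd8a and Cd5 at background, and that of 5 basophil and eosinophil markers 198 to 322 against 496 to 573, with Epx at background. Sums for 7 natural killer (Ncr1 and Gzmb at background), 5 plasmacytoid dendritic (Ccr9 at background), 7 neutrophil, 4 monocyte and 3 erythroid markers overlapped between the groups, though the brightest probes dominate such sums. Probe by probe, 1 of 4 tested T cell markers was called higher, and 1 of 5 natural killer, 1 of 4 monocyte and 2 of 4 basophil and eosinophil markers were called lower. The median log2 differences of these 4 lists were 0.53, -0.51, -0.27 and -0.80, and all 4 monocyte and 4 of the 5 natural killer markers were below 0. None of the 4 plasmacytoid dendritic, 7 neutrophil and 2 erythroid markers tested was called, and of 7 B-lineage markers 3 were called lower and 0 higher. Across all tested genes 7.89% were called higher and 5.25% lower. The part of these markers in the values of Nlrc5, Stat2 and the immunoproteasome genes was not tested.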

How the data were processed

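The scanner table deposited by the authors gives for each array, per the file headers, a non-normalized intensity and, beside it, a detection p-value. A second deposited table, from the series matrix, was read as log2 values. All its columns ran from 0.28 to 15.26 with a median of 2.46, and its log base, offset and background step stay unknown. Each array matched 1 column of its own group by rank correlation (Spearman 1, next best at most 0.928), so the direction is shared. The submitters' processing notes name affy with no version. Columns of the intensity table name the genotype without a replicate number. Intensities were background corrected and quantile normalized (neqc, offset 16, limma 3.58.1, R 4.3.3). The 18172 probes detected on at least 3 of 6 arrays were fitted with lmFit and eBayes (9.17 degrees of freedom) and adjusted by Benjamini-Hochberg. Probes were named from the platform annotation: 34885 had 1 symbol, 18 several and 10378 none. Symbols were updated by gene number to RefSeq (GRCm38.p6), which all 47 members matched. The fit was tested on simulated data.

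The members and lists were chosen with earlier results of these data known. By the rule for named genes, values on every array are given for Psmb5 to Psmb10, Psme1, Psme2, all called members and the 2 uncalled members of lowest p (Psmd11 and Psma8). Psmc5 and Psmd2 were added after their values were seen, as were second probes. From each other list up to 4 genes of lowest p were named, and Pomp was added. The alternatives were other background corrections, scaling, filters, probe choices, array weights, the sex of the RNA as a block, the authors' processed values with and without the replicate number as a block, and each array left out. Precision is limited by having only 3 arrays a group.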

Additional observations from a re-analysis of the deposited data

How the results depend on the processing

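Among 17 alternatives no member was called under 15. With the authors' processed values and the replicate number as a block 1 member was called higher, Psma8 at 0.64 (adjusted p = 0.049), near background. With the sex of the RNA as a block 1 was called lower (Psmd2). The median of the members moved from -0.03 to -0.07 under median scaling, which put the median of all genes at -0.01. With 1 array left out, 0 members were called higher and 0 lower in each of the 6 fits, the median ran from -0.04 to 0, and the difference in immunoproteasome balance from -0.09 to 0.1. The deviations of same-numbered samples correlated at 0.17, 0.00 and 0.23, highest with the own number for 2 of 3, so a pairing was not established, and the replicate block changed no other call of a member. Over all tested genes 1271 were called, 911 with the authors' values, 629 with these and the block, and 736 to 917 with 1 array left out, with 736 without Fnip1-null array B and 788 without wild type array B. Among members the largest move on leaving out 1 array was that of Psmd2. Probes near background, such as those of Psma8, limit what can be said of the dimmest members. The cause of these moves was not tested.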

Other observations

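The regulatory particle and the core stood apart from each other by a small amount, a comparison chosen after the values were seen and given without a test. Of 15 tested genes of the 19S particle (ATPases, base and lid) 12 had a negative log2 difference, with a median of -0.09. Of 12 tested genes of the 20S rings 8 had a positive one, with a median of 0.06. Across all 9676 tested genes 4628 were negative and 5048 positive. The 20S rings include Psma8 at 0.25, near background and detected on only 1 array labelled wild type. With only probes detected on all arrays, the 20S median was 0.04 and 7 genes were positive. None of the 27 genes of the 19S particle and the 20S rings passed the test. The mean of the 19S genes minus that of the 20S genes, centred over the 6 arrays, was -0.20, -0.07 and -0.03 on the arrays labelled Fnip1-null and 0.08, 0.12 and 0.09 on those labelled wild type. The groups did not overlap. The 19S mean alone was -0.18 on array A labelled Fnip1-null and -0.02 and 0.01 on arrays B and C, against 0.05 to 0.08 on those labelled wild type. Without that array the medians were -0.07 and 0.08, and 11 of the 15 were negative. Median scaling gave -0.16 and 0.00. Across the 17 alternatives the median of the 19S genes stayed below that of the 20S genes, between 11 and 15 of the 19S genes were negative, and between 6 and 10 of the 20S genes were positive. These counts are not independent, since all genes share the same 6 arrays.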
